A study of Mus musculus with 10 samples.

Results

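The 10 genes described here carry out or control the display of peptides on major histocompatibility complex (MHC) class I molecules: B2m, H2-K1, H2-D1, Tap1, Tap2, Tapbp, Psmb8, Psmb9, Psmb10 and Nlrc5. They were chosen by name for their roles, and all 10 of the 10 were found among the 45706 genes of the deposited tables and passed the filter on low counts that left 20165 genes. RNA was sequenced from mouse cells at 5 stages of reprogramming to pluripotency, with 2 biological replicates for each stage and 10 libraries in all.

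The MEF group was mouse embryonic fibroblasts of a C57BL/6 x 129 background that carry a doxycycline-inducible cassette of Oct4, Klf4, Sox2 and Myc (OKSM) in the Col1a1 locus and the M2rtTA transactivator in the Rosa26 locus, grown in MEF medium without doxycycline and not sorted. The day 3, day 6 and day 9 groups were cells of the same genotype and background, reprogrammed in embryonic stem cell medium with doxycycline at 1 µg/ml and ascorbic acid at 50 µg/ml. Day 3 cells were not sorted, whereas the day 6 and day 9 cells were sorted for the surface antigen SSEA1, so those libraries describe the sorted fraction only. The ESC group was the V6.5 embryonic stem cell line of the same strain label, without the OKSM and M2rtTA genotype, grown without sorting on irradiated feeder cells in medium with serum and leukaemia inhibitory factor. Day 3 against MEF therefore joins induction, medium and ascorbic acid, and day 6 against day 3 joins time and sorting. ESC differs from the other groups in genotype and feeders. It also differs from days 3, 6 and 9 in doxycycline and ascorbic acid, from days 6 and 9 in sorting, and from MEF in medium.

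Class I molecules are made of a polymorphic heavy chain, such as H2-K1 or H2-D1, and the invariant light chain B2m. Peptides cut by the proteasome enter the endoplasmic reticulum through the TAP transporter and are loaded with the help of tapasin, and cytotoxic T cells then read the peptide on the cell surface while natural killer cells sense loss of class I. Interferon gamma raises most genes of the pathway, including the immunoproteasome subunits, and pluripotent and other early embryonic cells are known for low class I expression.

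Between 29585876 and 38275024 reads were assigned to genes in each library. The 10 fibroblast markers (the collagens Col1a1, Col1a2, Col3a1 and Col5a2, with Thy1, Pdgfra, Pdgfrb, Postn, Dcn and Lum) summed to 48744 and 47316 read counts scaled to a common library total (CPM) in MEF, 3285 and 3254 at day 3, 77.3 and 75.6 at day 6, 47.2 and 51.1 at day 9, and 4192 and 4340 in ESC. The 8 pluripotency markers summed to 1.99 to 4.64 CPM in the MEF and day 3 libraries, 124 to 127 at day 6, 347 to 350 at day 9 and 3889 to 3974 in ESC. The labels of the groups thus match their defining markers, apart from fibroblast transcripts in the ESC libraries, which hold irradiated feeders by the culture protocol. The 6 endothelial markers (Cdh5, Kdr, Tek, Emcn, Egfl7 and Tie1) summed to 17.3 and 14.5 CPM in MEF, 135 and 132 at day 3, and 143 and 137 at day 6. They summed to 93.3 and 93.4 at day 9 and to 40.8 and 43.2 in ESC. Ddx3y, a Y-linked gene, was at 86.4 to 90.6 CPM in MEF and 26.1 to 26.8 in ESC but at 0.0538 to 0.176 from day 3 to day 9, while Xist was at 0.739 to 0.793, 9.0 to 11.3 and 930 to 1317 CPM in the same order. The MEF and the induced libraries thus differ in sex-linked transcripts, and so do the ESC and the induced libraries. In every comparison of days 3, 6 or 9 with MEF or ESC, the sex of the cells and the stage cannot be told apart.

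In the genome (GRCm38), 7 of the 10 genes lie in the MHC region of chromosome 17 and the other 3 lie elsewhere. B2m lies at chr2:122147686-122153083 on the + strand. From the proximal end of the MHC stretch come Tapbp (chr17:33915899-33929292, +), H2-K1 (chr17:33996017-34000347, -), Psmb9 (chr17:34181987-34187764, -), Tap1 (chr17:34187553-34197225, +), Psmb8 (chr17:34197721-34201454, +), Tap2 (chr17:34203527-34216321, +) and H2-D1 (chr17:35262730-35267499, +). The models of Psmb9 and Tap1 start from opposite strands and overlap by 212 bp, Tap1 ends 495 bp before Psmb8, and Psmb8 ends 2072 bp before Tap2. Nlrc5 (chr8:94434356-94527272, +) and Psmb10 (chr8:105935735-105938444, -) lie on chromosome 8. All 10 are annotated as protein-coding in GENCODE M21.

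Promoter windows of 250 bases before the RefSeq start were available for 8 of the 10 genes. The elements below are shown because the 3 chains of the class I molecule, whose RNA levels differ in their course over the stages, carry matches to the same 2 kinds of motif there. Capitals mark the matches to the kappaB consensus, which NF-kB factors bind, and to an interferon response motif. Each is written 5′ to 3′ on the strand of the gene. H2-K1 is at chr17:34000429-34000458 on the - strand, H2-D1 at chr17:35262923-35262952 on the + strand and B2m at chr2:122147548-122147570 on the + strand, all in GRCm38.p6 with sequences from RefSeq.
H2-K1: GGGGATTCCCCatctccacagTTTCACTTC
H2-D1: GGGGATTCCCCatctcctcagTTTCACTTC
B2m: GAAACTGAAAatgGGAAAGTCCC
Relative to the RefSeq start, the elements begin at position -111 in H2-K1, -171 in H2-D1 and -139 in B2m. The H2-D1 element lies inside the longer GENCODE model of that gene. H2-K1 and H2-D1 differ at 1 of the 30 positions, and over 190 aligned bases their windows were 87.9% identical. In B2m the order of the motifs is the opposite one.

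The interferon response motif was searched on both strands in 2 forms that differ by 1 base. The longer form was held by B2m alone of the 8 and occurred in 2.98% of 32851 mouse windows of the same length. Its shorter form was found in H2-K1 and H2-D1 and in 6.31% of all windows. The kappaB consensus was found in B2m, H2-K1 and H2-D1 and in 7.25% of windows; in the heavy chains its matches overlap each other by all but 1 base and lie on both strands. Of the motifs bound by the class I enhanceosome, the CRE core TGACG of the X2 box was found in 5 of the 8 (B2m, H2-K1, H2-D1, Tap1 and Psmb9) and in 17.8% of all windows. The Y box core ATTGG was found in 6 of the 8, which adds Tapbp to the same 5 genes, and in 33.8% of all windows. These are letter matches in a window and not measurements of binding. The windows of Tap1 and Psmb9 overlap on opposite strands. Their CRE core matches are the same genomic site, and so are their Y box core matches, so each site was counted for both genes.

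Levels are given first as CPM after scaling of the libraries by the trimmed mean of M-values (TMM), for replicate 1 and then replicate 2. Genes are called higher or lower where edgeR's quasi-likelihood test over all 20165 genes gave a Benjamini-Hochberg adjusted p under 0.05 and the log2 fold change was at least 1 in size. Fold changes are log2 values with their standard error (SE), and 2 libraries stand behind each mean. In bulk RNA, fewer cells that express a gene and less RNA per cell cannot be told apart. The comparisons of days 3 and 9 and of ESC with MEF share the MEF libraries, and each day enters several comparisons, so their values are not independent.

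**Figure D1:**
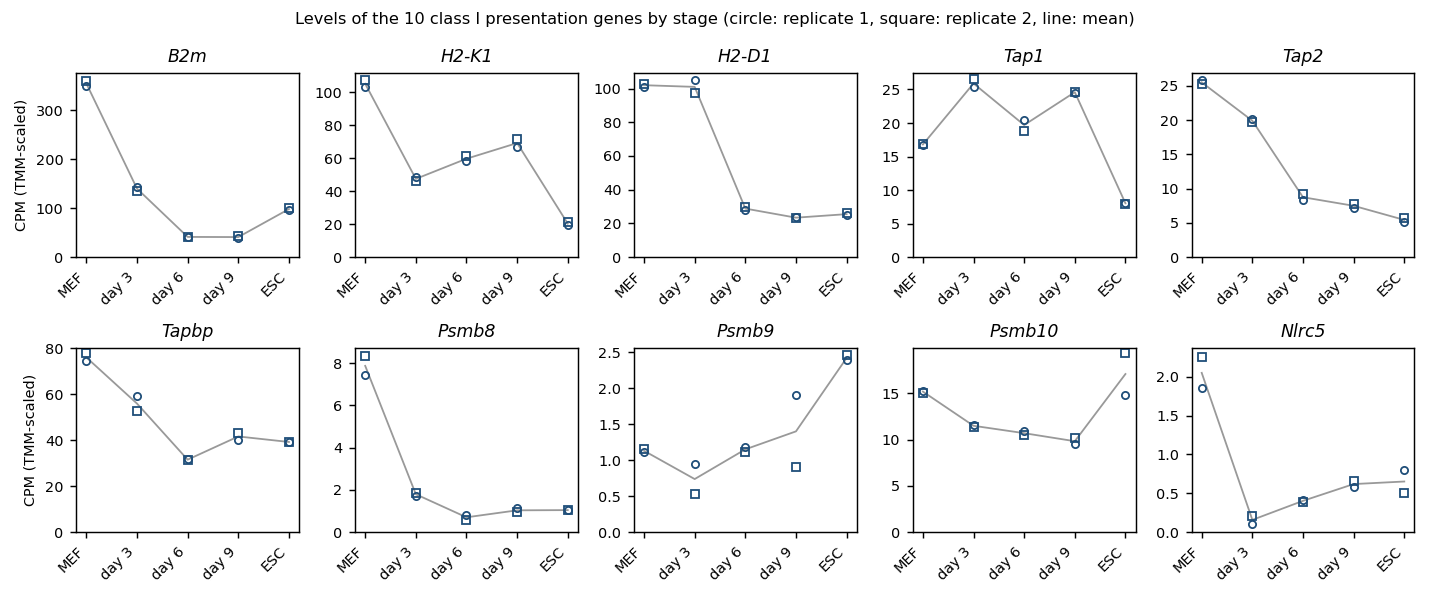
CPM of each of the 10 genes (vertical axes, linear and starting at 0, with their own range) at each of the 5 stages; circles are replicate 1, squares replicate 2 and lines join the means. B2m, H2-D1, Tap2 and Psmb8 reach their low levels by day 6, H2-K1 has its lowest reprogramming level at day 3 and its lowest level of all in ESC, and Tap1 is above its MEF level on all 3 days.

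B2m, the light chain shared by all class I molecules, fell in 2 steps until day 6, to 11.5% of its MEF level by day 9, and was higher again in ESC. Its level was 350 and 360 CPM in MEF, 143 and 136 at day 3, 41.8 and 40.9 at day 6, 39.6 and 42.3 at day 9, and 97.0 and 99.6 in ESC. All stages were separated by more than the spread of their replicates except days 6 and 9, whose ranges overlapped. The log2 fold change was -1.34 (SE 0.04, edgeR adjusted p = 4.2e-13) at day 3 against MEF and -1.76 (SE 0.04, edgeR adjusted p = 2.2e-13) at day 6 against day 3. Between days 6 and 9 it was -0.01 (SE 0.05, edgeR adjusted p = 0.92). ESC stood at 27.7% of the MEF level, above day 9 by 1.26 (SE 0.04, edgeR adjusted p = 4.3e-12) and with a log2 fold change of -1.85 against MEF.

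H2-K1, one of the 2 classical heavy chains, fell early, climbed slightly while reprogramming went on, and was lowest in ESC. Its level was 103 and 107 CPM in MEF, 48.6 and 46.1 at day 3, 58.1 and 61.1 at day 6, 66.5 and 71.7 at day 9, and 19.2 and 21.4 in ESC. No 2 stages overlapped. At day 3 the log2 fold change against MEF was -1.15 (SE 0.05, edgeR adjusted p = 1.6e-10), and ESC fell below day 9 by 1.76 (SE 0.06, edgeR adjusted p = 4.8e-12). The differences between days 3 and 6 and between days 6 and 9, 0.33 (SE 0.06) and 0.22 (SE 0.05), were under the fold minimum. Day 9 cells held 65.8% of the MEF level, and the log2 difference of -0.60 was also under that minimum. With scaling to library size alone the day 3 value was -0.94, which no longer passed the fold minimum.

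H2-D1, the other classical heavy chain, took a different course. Its level was 101 and 103 CPM in MEF, 105 and 97.4 at day 3, 28.0 and 29.6 at day 6, 23.6 and 23.1 at day 9, and 24.7 and 26.2 in ESC. MEF and day 3 overlapped, and every later library lay far below both. The log2 fold change was -0.01 (SE 0.05, edgeR adjusted p = 0.87) at day 3 against MEF, and this value changed sign to 0.19 with library-size scaling. At day 6 against day 3 it was -1.82 (SE 0.05, edgeR adjusted p = 1.1e-12). From day 6 on the level moved little, with -0.30 (SE 0.06) at day 9 and 0.12 (SE 0.06) in ESC against day 9.

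The ratio of the 2 heavy chains changed by stage. Per length, on the length-normalised TPM scale of the deposited tables, H2-K1 over H2-D1 was 0.726 and 0.765 in MEF, 0.288 and 0.338 at day 3, 1.32 in both day 6 libraries, 1.71 and 1.83 at day 9, and 0.591 and 0.601 in ESC. On that scale H2-D1 was the higher heavy chain in MEF, at day 3 and in ESC, and H2-K1 at days 6 and 9. TPM gives short transcripts a large weight. The short transcript H2-D1-003, of effective length 142 against 1853 for H2-D1-001, held 10.5% of H2-D1 reads in MEF and 13.8% at day 9. The order of the chains in TPM therefore depends on that transcript and may differ for full-length transcripts. A ratio of full-length transcripts was not computed. As a ratio of assigned reads MEF stood at 1.03 ± 0.0205 (SD, n = 2), day 3 at 0.467 ± 0.00855, day 6 at 2.07 ± 0.00585, day 9 at 2.95 ± 0.201 and ESC at 0.798 ± 0.0286. The genes resemble each other: of the 50-base stretches in their transcripts, 10.2% of H2-K1 and 12.8% of H2-D1 also occur in transcripts of other genes, 141 of them in both. Reads in these stretches were divided by the authors' estimation step, so the split between the chains is less certain than the levels of B2m, which shares none.

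Summed over the 18 class I heavy chain genes, which does not depend on that split, the level was 321.5 and 337.1 CPM in MEF, 218.5 and 205 at day 3, 143.5 and 150 at day 6, 182.9 and 188.9 at day 9, and 144.3 and 150.9 in ESC. Besides H2-K1 and H2-D1 these are nonclassical genes, which went in both directions. H2-Q6 was at 1.07 CPM in MEF and 41.1 at day 9, and H2-M5 at 0.757 in MEF and 45.1 in ESC. H2-T22 fell from 43.4 in MEF to 8.44 at day 9 and 9.84 in ESC. The sum therefore does not give the course of H2-K1 and H2-D1 alone. The sum was highest in MEF, and day 6 and ESC overlapped. Its log2 fold change was -0.64 at day 3 against MEF, -0.53 at day 6 against day 3, 0.34 at day 9 against day 6, -0.82 at day 9 against MEF and -0.33 in ESC against day 9. None of these 5 values passed the fold minimum. In ESC against MEF the sum was at -1.16, past the minimum and called lower.

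The balance of light to heavy chain RNA also differed by stage. In TPM, B2m over the sum of H2-K1 and H2-D1 was 2.55 and 2.67 in MEF, 1.39 and 1.42 at day 3, 0.807 and 0.676 at day 6, 0.64 and 0.731 at day 9, and 3.27 and 3.39 in ESC. On this scale light chain RNA was above the summed heavy chains in MEF, at day 3 and in ESC. It was below them in all 4 libraries of days 6 and 9, whose ranges overlapped. The heavy chain sum includes short transcripts of both genes, such as H2-D1-003, which TPM weighs heavily. The low ratios of days 6 and 9 therefore depend on those transcripts. Light chain RNA may not lie below the heavy chains there for full-length transcripts, and that ratio was not computed. With protein-coding transcripts alone, which still include H2-D1-003, the ratio was 2.66 in MEF, 0.75 at day 9 and 3.6 in ESC. For single ratios an exact two-sided permutation test of 2 libraries against 2 cannot give a p below 0.333, so none is given.

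**Figure D2:**
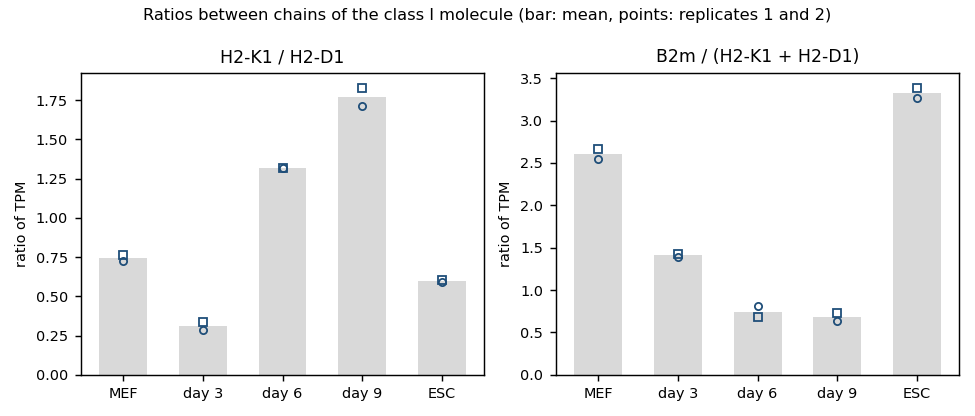
Ratio of TPM (vertical axes) of H2-K1 to H2-D1, left, and of B2m to the sum of H2-K1 and H2-D1, right, by stage; bars are means and points the 2 replicates. In TPM, H2-K1 is above H2-D1 at days 6 and 9 only, and B2m is below the summed heavy chains, at 0.64 to 0.807, in the same libraries. Short heavy chain transcripts enter these TPM values, so these orders may differ for full-length transcripts.

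Tap1 and Tap2 form the transporter that carries peptides into the endoplasmic reticulum, and their RNAs moved apart. Tap1 was at 16.7 and 16.9 CPM in MEF, 25.4 and 26.5 at day 3, 20.5 and 18.8 at day 6, 24.5 and 24.7 at day 9, and 8.07 and 7.98 in ESC. All reprogramming libraries were above MEF and all ESC libraries below it, with no overlap. The difference from MEF at day 3 was 0.63 (SE 0.06, edgeR adjusted p = 6e-07) and at day 9 it was 0.55 (SE 0.06, edgeR adjusted p = 1.8e-06), both under the fold minimum. ESC fell below day 9 by 1.62 (SE 0.07, edgeR adjusted p = 4.3e-11) and below MEF by 1.07 (SE 0.07, edgeR adjusted p = 5.2e-09). The latter value lay near the fold minimum and was -0.73 with library-size scaling.

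Tap2 had a lower mean at each later stage. It was at 25.8 and 25.3 CPM in MEF, 20.2 and 19.7 at day 3, 8.29 and 9.19 at day 6, 7.20 and 7.78 at day 9, and 5.13 and 5.74 in ESC. No stages overlapped in CPM, and the step that passed the thresholds was day 6 against day 3, at -1.19 (SE 0.08, edgeR adjusted p = 1.4e-08). In TPM, MEF (15.3 and 11.7) overlapped day 3 (11.8 and 12.0), and day 9 (3.84 and 4.85) overlapped ESC (5.28 and 3.17). Against MEF the log2 fold change was -1.77 (SE 0.08) at day 9 and -2.23 (SE 0.09) in ESC, both called lower. Between 76.0% and 86.9% of the Tap2 reads of a library were assigned to a transcript annotated as retaining an intron, so the values count that RNA together with coding RNA.

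Tapbp encodes tapasin, which bridges the transporter and the empty class I molecule. It was at 74.3 and 77.7 CPM in MEF, 59.1 and 52.6 at day 3, 31.6 and 31.5 at day 6, 40.2 and 43.0 at day 9, and 39.2 in both ESC libraries. The level was lowest at day 6, and every library after MEF was below both MEF libraries. No comparison passed the fold minimum: day 9 against MEF was -0.87 (SE 0.06, edgeR adjusted p = 3.1e-09) and ESC against MEF -0.96 (SE 0.06, edgeR adjusted p = 1e-09). With DESeq2 these were -1.01 and -1.03, past the minimum.

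Psmb8 encodes the immunoproteasome subunit that takes the place of Psmb5. Its level fell at day 3 and again at day 6. It was at 7.42 and 8.32 CPM in MEF, 1.72 and 1.86 at day 3, 0.823 and 0.575 at day 6, 1.13 and 0.934 at day 9, and 1.03 and 1.04 in ESC. Every later library was far below both MEF libraries, and day 9 and ESC overlapped. The log2 fold change was -2.13 (SE 0.21, edgeR adjusted p = 4.7e-07) at day 3 against MEF and -1.35 (SE 0.25, edgeR adjusted p = 0.00035) at day 6 against day 3. At day 9 and in ESC it stood at 13.1% and 13.2% of the MEF level.

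Psmb9, which takes the place of Psmb6, was low at all stages and did not follow Psmb8. It was at 1.11 and 1.16 CPM in MEF, 0.942 and 0.532 at day 3, 1.18 and 1.12 at day 6, 1.90 and 0.909 at day 9, and 2.39 and 2.46 in ESC. The 2 day 9 libraries differed more than the stages before them, and ESC lay above every other library. ESC rose above MEF by 1.09 (SE 0.35, edgeR adjusted p = 0.011); without MEF replicate 1 the value was 1.05 and no longer passed the test. Against day 9 the difference was 0.81 (SE 0.33), and without day 9 replicate 1 it was 1.41 and passed. Psmb9 and Tap1 overlap on opposite strands; the kit keeps strand, but whether the authors' counting used it is not given in the sources used here.

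Psmb10, which takes the place of Psmb7, varied least of the 10. It was at 15.3 and 15.1 CPM in MEF, 11.6 and 11.4 at day 3, 10.9 and 10.5 at day 6, 9.48 and 10.2 at day 9, and 14.8 and 19.4 in ESC. It was lower on the 3 reprogramming days than in MEF or ESC, and MEF and ESC overlapped. No comparison was called; the differences of day 9 from MEF and of ESC from day 9 were -0.62 (SE 0.11) and 0.80 (SE 0.11).

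The standard counterparts of these subunits differed little between stages and were far more abundant per length. Mean TPM of Psmb5 ran from 63.4 at day 3 to 109 in ESC, that of Psmb6 from 101 to 190, and that of Psmb7 from 77.6 in MEF to 126 in ESC. The ratio of Psmb8 to Psmb5 in TPM dropped from 0.0567 in MEF to 0.0135 on day 3 and 0.0048 on day 6, with 0.00676 on day 9 and 0.00538 in ESC. For Psmb9 over Psmb6 it was 0.013 in MEF and 0.0165 in ESC, and for Psmb10 over Psmb7 it was 0.0877 in MEF, 0.0479 at day 9 and 0.0639 in ESC. None of the 3 standard subunits, of the 11 other subunits of the 20S core or of the 5 activator and maturation genes (Psme1 to Psme4 and Pomp) was called in any of the 6 comparisons. Over all tested genes, 2.68% to 20.6% were called lower and 5.18% to 25.5% higher in these comparisons. Psme1 and Psme2, the interferon-inducible activator subunits, stood at -0.04 and -0.93 in ESC against MEF.

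**Figure D3:**
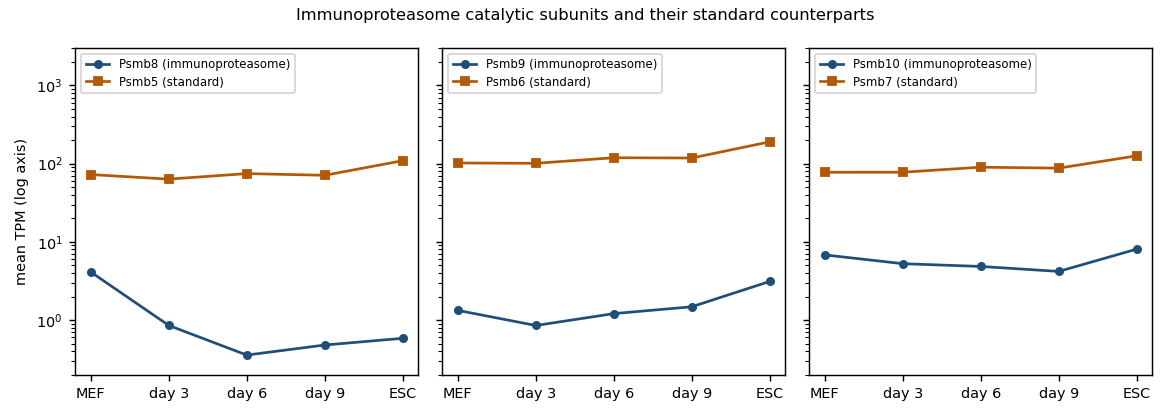
Mean TPM (vertical axis, log scale) by stage of the immunoproteasome subunits Psmb8, Psmb9 and Psmb10 (circles) and of the standard subunits Psmb5, Psmb6 and Psmb7 that they replace (squares). The standard subunits stay between 63.4 and 190 TPM, and Psmb8 alone of the immunoproteasome subunits falls steeply between MEF and day 6.

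Nlrc5, the transactivator of class I genes, was near the limit of detection after induction. It was at 1.85 and 2.26 CPM in MEF, 0.108 and 0.207 at day 3, 0.412 and 0.393 at day 6, 0.579 and 0.657 at day 9, and 0.795 and 0.507 in ESC. The day 3 values rest on 4 and 7 reads, and ESC and day 9 overlapped. Relative to MEF the log2 fold change was -3.69 (SE 0.43, edgeR adjusted p = 3e-06) at day 3, -1.72 (SE 0.36, edgeR adjusted p = 0.00053) at day 9 and -1.66 (SE 0.35, edgeR adjusted p = 0.00067) in ESC. With limma on log2(TPM + 1) these values were -0.35, -0.18 and -0.24, and none was called. On log2(TPM + 0.1) they were -1.53, -0.58 and -0.88, and only day 3 was called. In TPM, MEF (0.199 and 0.485) and day 9 (0.219 and 0.144) overlapped. From day 3 to day 6 Nlrc5 rose by 1.35 (SE 0.50, edgeR adjusted p = 0.032). That rise did not pass with DESeq2 (1.34) or without day 3 replicate 1 (0.94), day 6 replicate 1 (1.31) or day 6 replicate 2 (1.38).

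Counted over the 10 genes, 4 fell at day 3 against MEF (B2m, H2-K1, Psmb8 and Nlrc5) and 0 rose, where 14.5% and 14.6% of all tested genes were called lower and higher. At day 6 against day 3, 4 fell (B2m, H2-D1, Tap2 and Psmb8) and 1 rose (Nlrc5), with 10.2% and 9.26% of all genes called in those directions. At day 9 against day 6 none of the 10 was called in either direction with edgeR, against 2.68% lower and 5.18% higher over all genes. Without the fold minimum, 3 of the 10 were higher and 1 lower in that comparison, against 3162 higher and 3819 lower of all 20165 genes.

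Against MEF, 5 of the 10 were lower at day 9 and 0 higher, with 19.8% and 24.1% of all genes called lower and higher. In ESC 7 were lower than in MEF and 1, Psmb9, was higher, with 20.6% and 25.5% over all genes. In ESC against day 9, B2m rose while H2-K1 and Tap1 fell, where 18.6% of all genes rose and 14.3% fell. The median log2 fold change of the 10 was -0.53 for day 3 against MEF, where that of all tested genes was 0.08. For day 6 against day 3 the medians were -0.61 and 0.03, and for day 9 against day 6 they were 0.24 and 0.00. For day 9 against MEF they were -1.30 and 0.19, for ESC against day 9 they were 0.04 and 0.00, and for ESC against MEF they were -1.76 and 0.10.

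**Figure D4:**
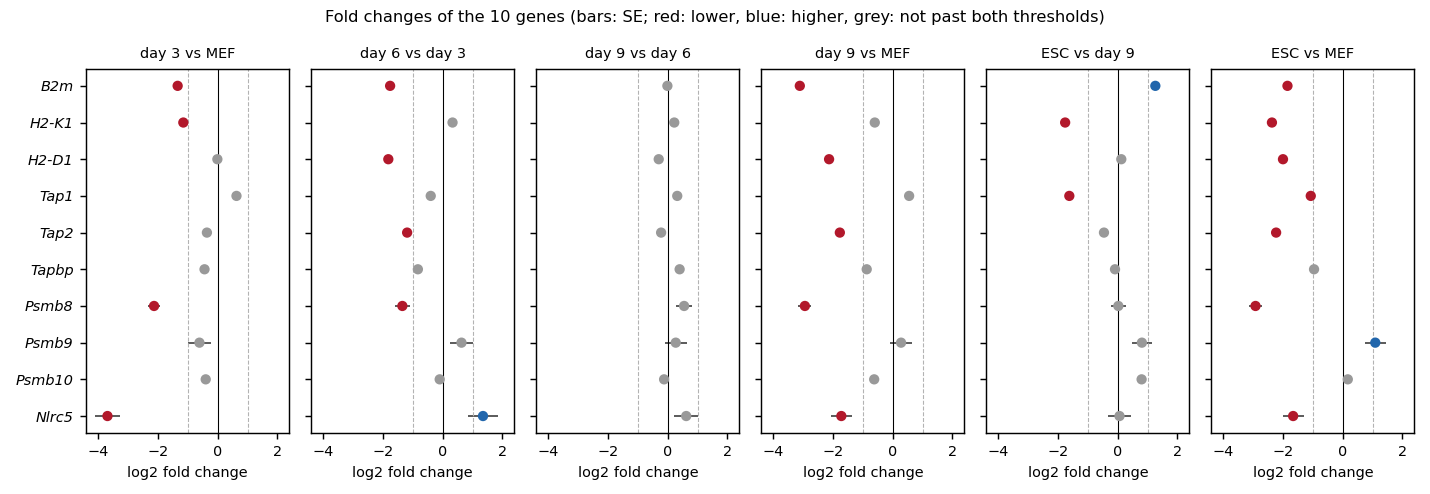
Log2 fold change (horizontal axes) of the 10 genes in the 6 comparisons; bars are SE, red points were called lower, blue points higher, and grey points did not pass both the test and the fold minimum (dashed lines). Points are red for 4 genes at day 3, 4 at day 6 against day 3, none at day 9 against day 6, and 7 in ESC against MEF.

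In CPM, the order of the stages differed among the genes. B2m and Psmb8 differed in their order of means only at days 6 and 9, which overlapped for B2m. MEF was the highest stage for 7 of the 10 (B2m, H2-K1, H2-D1, Tap2, Tapbp, Psmb8 and Nlrc5), day 3 for Tap1, and ESC for Psmb9 and Psmb10, though the MEF and day 3 libraries of H2-D1 and the ESC and MEF libraries of Psmb10 overlapped. The lowest stage was ESC for H2-K1, Tap1 and Tap2, day 9 for B2m, H2-D1 and Psmb10, day 6 for Tapbp and Psmb8, and day 3 for Psmb9 and Nlrc5. Other neighbours that overlapped were days 6 and 9 for B2m, ESC and day 9 for Psmb8 and Nlrc5, and day 6 with both day 9 and MEF for Psmb9. The highest stage mean was 13.0 times the lowest for Nlrc5, 11.3 for Psmb8, 8.66 for B2m, 5.16 for H2-K1, 4.70 for Tap2, 4.37 for H2-D1, 3.28 for Psmb9, 3.23 for Tap1, 2.41 for Tapbp and 1.74 for Psmb10.

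In ESC against day 9, 9 of the 10 fibroblast markers were called higher and 0 lower, with 18.6% of all tested genes higher. Of the class I genes, B2m was called higher there and H2-K1 and Tap1 lower. In ESC the 10 fibroblast markers ranged from 1.11% (Lum) to 14.0% (Thy1) of their MEF levels. At day 9 none of the 10 was above 2.5% (Dcn) and Lum had no reads. The class I genes in ESC stood at 13.2% (Psmb8) to 214% (Psmb9) of MEF, with B2m at 27.7%, H2-K1 at 19.3% and H2-D1 at 25.0%. Leukocyte markers, 10 in number, summed to 86.7 and 90.4 CPM in ESC and to between 6.06 and 28.5 in the other libraries. Lyz2 and Cd68 made up most of the ESC sum, while the T cell marker Cd3e was under 0.1 CPM in the other 4 groups. Of the 9 tested, 5 were called higher in ESC than in MEF and 0 lower, with 25.5% and 20.6% over all genes. Ptprc, Adgre1, Csf1r and Aif1 were not called. Ptprc was at 0.928 CPM in MEF and 0.838 in ESC, and Csf1r at 3.69 and 2.93. The part of feeders or leukocytes in the ESC levels of these genes, including the rise of B2m over day 9, was not tested.

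**Figure D5:**
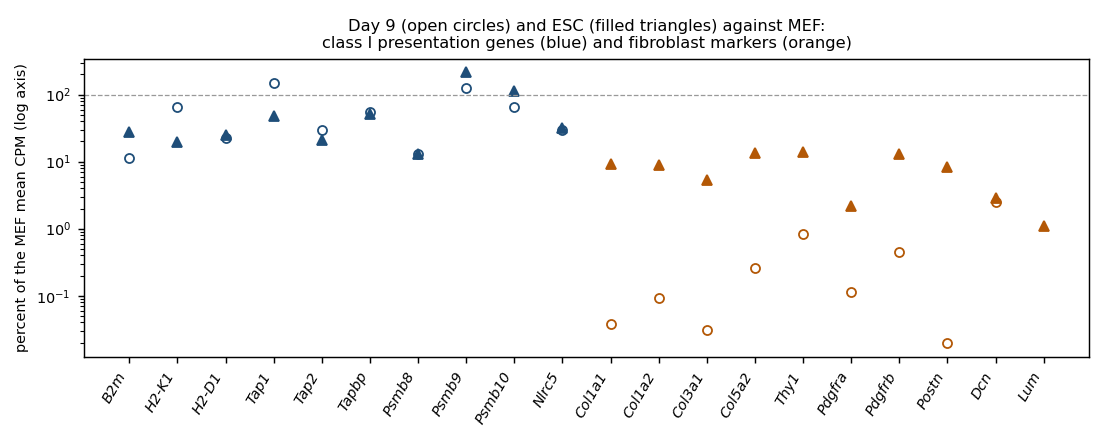
Mean CPM at day 9 (open circles) and in ESC (filled triangles) as a percentage of the MEF mean (vertical axis, log scale) for the 10 class I presentation genes (blue) and the 10 fibroblast markers (orange); the dashed line is the MEF level. ESC values of the markers are 1.11% to 14.0%, B2m is at 11.5% at day 9 and 27.7% in ESC, and Lum has no day 9 point because it had no reads.

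Among the 7 genes that assist peptide loading and trimming, 3 were lower at day 9 than in MEF and 0 higher. These were the chaperone Calr (-1.06), the oxidoreductase Pdia3 (-1.15) and the trimming aminopeptidase Erap1 (-1.20). In ESC against MEF 2 were lower, Erap1 (-2.54) and Pdia3 (-1.04). Over all tested genes, 19.8% were lower at day 9 and 20.6% in ESC. Erap1 went from 31.6 CPM in MEF to 13.7 at day 9 and 5.42 in ESC. Calnexin (Canx) was at -0.50 and -0.42 and did not pass the fold minimum.

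The 8 DNA-binding partners of Nlrc5 in the class I enhanceosome (the RFX, NF-Y and CREB/ATF factors) kept within the fold minimum except for Nfyb, a subunit of the Y box factor. Nfyb rose from 33.0 CPM in MEF to 73.1 at day 9 and 74.3 in ESC, log2 fold changes of 1.15 and 1.17. No other member of that list was called in any of the 6 comparisons. Over all tested genes, 2.68% to 20.6% were called lower and 5.18% to 25.5% higher in them. Rfx5 was at 18.5 CPM in MEF and 36.4 at day 3, a difference of 0.98.

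The interferon receptors and the kinases and factors they signal through were mostly lower after MEF. Of 10, 4 were lower at day 3 than in MEF, 7 at day 9 and 8 in ESC, and none was higher. The shares of all tested genes called lower were 14.5%, 19.8% and 20.6% in the same order. The receptor-associated kinase Jak2 had 148 CPM in MEF, 62.1 on day 3, 23.7 on day 6, 19.1 on day 9 and 15.3 in ESC. At day 9 against MEF the 4 with the largest change were Jak2 (-2.95), the feedback inhibitor Socs1 (-2.41), Jak1 (-2.25) and the interferon gamma receptor chain Ifngr2 (-2.24). In ESC they were Jak2 (-3.27), the ligand-binding chain Ifngr1 (-2.01), Socs1 (-1.70) and Ifngr2 (-1.54).

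Of 10 interferon regulatory factors and NF-kB subunits, 4 were lower at day 9 than in MEF and 0 higher: Irf7 (-3.98), Irf8, Irf1 (-1.66) and Irf9 (-1.07). Irf8, a factor of myeloid cells, was at 0.31 CPM in MEF and 0.0287 at day 9, too few reads for a fold. In ESC against MEF, 4 of the list were lower, Irf2 (-2.74), Nfkb2 (-1.87), Irf7 (-1.79) and Rela (-1.50), while Irf8 was higher at 1.97 CPM. Lower calls made up 19.8% of all tested genes at day 9 and 20.6% in ESC. Irf1, an activator of class I genes, was at 31.4 CPM in MEF, 9.94 at day 9 and 28.4 in ESC and rose by 1.51 from day 9 to ESC.

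Among 10 other genes that interferon gamma induces, 6 were lower at day 3 than in MEF, 6 at day 9 and 5 in ESC, and 0 were higher in any of the 3. All tested genes were called lower at shares of 14.5%, 19.8% and 20.6%. The guanylate-binding protein gene Gbp2 went from 15.4 CPM in MEF to 0.833 at day 9 and 4.73 in ESC, with log2 fold changes of -4.18 and -1.70. The immunity GTPase gene Irgm1 was at 23.6 CPM in MEF, 1.79 at day 9 (-3.73) and 21.8 in ESC. Iigp1 was at 0.824 CPM in MEF and had no reads at days 6 and 9. Cd47, whose product inhibits phagocytosis, went from 119 CPM in MEF to 61.5 at day 9 and 14.0 in ESC, -3.09 against MEF.

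The genes whose course was most like that of B2m and of Tap1 were ranked by Pearson's r of log2 CPM over the 10 libraries among 9926 protein-coding genes. These libraries come in 5 pairs of replicates, so r describes the course over 5 stages. For B2m they were Ugp2 (0.999), Lims2 (0.997), Hacd4 (0.996), Mkl1 (0.996) and Tspo (0.996). Ugp2, for example, had 93.8 CPM in MEF, 49.8 on day 3, 23.9 on day 6, 22.6 on day 9 and 39.8 in ESC. For Tap1 they included Tmem189 (0.994), Foxc1 (0.993), Cish (0.991) and Tmod3 (0.985). Cish, an inhibitor of cytokine signalling, was at 19.4, 44.5, 27.0, 32.9 and 5.01 CPM in the same order of stages.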

How the data were processed

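The members and gene lists were chosen with earlier results of these data known. Poly(A) RNA libraries were read as single 50-base reads, per the labels' protocols. The authors deposited a table per library of transcript estimated counts, which are not normalized and need not be whole, and of TPM, deposited as scaled by effective length to a common total; Salmon 0.8.2 and mm10 are named per the submitters' processing notes, and lengths are as deposited by the authors. Estimated counts and TPM were summed from 109617 transcripts to 45706 genes, and counts were rounded. In edgeR 4.0.16 under R 4.3.3, filterByExpr (minimum count 10, total 15), TMM and quasi-likelihood fits were applied to all 10 libraries with a mean per stage; each SE was taken as the fold change's size on the log2 scale divided by the root of the F statistic. Common biological variation was 3.75%. Annotation was from GENCODE M21, matching 98.8% of genes; 135 of 139 listed genes were found, 1 of them by gene ID. The script was tested on data with known answers.

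All 10 members were named. From each list other than the cell type markers the text names up to 4 genes with the largest change among those called at day 9 and up to 4 in ESC against MEF, and any partner gene of a member. Pluripotency and endothelial markers are given as sums only. The like genes are the 5 protein-coding genes of highest r with a mean CPM of at least 10; 1 of those for Tap1 is not reported here. Lyz2, Cd68, Ptprc, Adgre1, Csf1r and Aif1 were named after their values were seen. Alternatives used DESeq2 1.42.0 and limma 3.58.1 on log2(TPM + 1) and log2(TPM + 0.1), other scalings and filters, summed heavy chains, a replicate block and each library left out. Promoters were aligned with Biopython 1.88, and figures drawn with matplotlib 3.10.9.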

Additional observations from a re-analysis of the deposited data

How the results depend on the processing

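Of the 10 genes, counts of those called changed as follows. Without the fold minimum, higher and lower counts were 1 and 7 at day 3 against MEF, 3 and 1 at day 9 against day 6, and 1 and 8 at day 9 against MEF; 2 were higher at day 6 against day 3 and 3 in ESC against day 9. Of all 20165 genes, that rule gave 7146 and 5948, 3162 and 3819, and 8414 and 6684 in the first 3 of these comparisons. It gave 5890 higher at day 6 against day 3 and 7280 higher in ESC against day 9. With the stricter filter, which leaves out low genes, 2 of the 10 were lower at day 3 and 3 at day 9 against MEF. With that filter 0 were higher at day 6 against day 3 and in ESC against MEF. Of its 11712 genes, 1555 and 2470 were lower in the first 2 of these comparisons, and 806 and 2337 were higher in the other 2. The 1 gene higher at day 6 against day 3 became 0 with DESeq2, with only the 2 groups compared and with limma at either pseudocount. Of all genes, 1510 of 20165 were higher there with DESeq2 and 1570 of 17477 with only the 2 groups. With limma 581 and 1220 of 20165 were higher, at pseudocounts of 1 and 0.1. With limma on log2(TPM + 1), 2 of the 10 were lower at day 6 against day 3 and 0 higher in ESC against MEF. With log2(TPM + 0.1), 2 of the 10 were higher in ESC against day 9. In the same order, 813, 2771 and 3473 of all 20165 genes were called. Summing the heavy chains left 1 member lower in ESC against day 9, with 2885 of all 20150 genes lower. Leaving out one library gave 0 to 1 higher at day 6 against day 3, 1 to 2 in ESC against day 9 and 0 to 1 in ESC against MEF.

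The directions that changed belong to main values of at most 0.33 in size on the log2 scale. H2-D1 at day 3 against MEF was 0.19 with library-size scaling, 0.01 without MEF replicate 2 and 0.05 without day 3 replicate 2. H2-D1 in ESC against day 9 was -0.07 with limma at either pseudocount. B2m at day 9 against day 6 was 0.01 with library-size scaling and 0.02 with the stricter filter, and ran from -0.06 to 0.03 (without day 9 replicate 1) with one library left out. Tapbp in ESC against day 9 was 0.02 with limma. Nlrc5 there was -0.07 and -0.30 with limma and -0.02 without day 9 replicate 1. With one library left out, Psmb8 there ran from -0.12 to 0.15 and Nlrc5 from -0.28 to 0.35. Psmb9 at day 9 ran from -0.34 to 0.72 against day 6 and from -0.32 to 0.74 against MEF, the lower ends without day 9 replicate 1. Psmb10 in ESC against MEF ran from -0.05 to 0.35. The summed heavy chains, in place of one chain, gave -0.53 for H2-K1 at day 6 against day 3, and 0.34 and -0.33 for H2-D1 at day 9 against day 6 and in ESC against day 9. The cause was not tested, apart from the filter's and the sum's own construction.

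With library-size scaling the all-gene median on the log2 scale was 0.285 at day 3, 0.482 at day 9 and 0.438 in ESC against MEF, and the calls were split 3809 higher to 2483 lower, 6241 to 3284 and 6553 to 3152. With TMM the splits were 2950 to 2923, 4857 to 3994 and 5142 to 4148. Replicate numbers did not pair the samples: deviations of same-numbered libraries correlated by 9.91e-05 on average. With the replicate block, all 72 results on the 10 genes kept their call and direction, with 0 changed, 4 genes lower at day 3 against MEF. Low depth limits Nlrc5 and Psmb9, whose calls rest on few reads.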

Other observations

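The nonclassical class I genes went in both directions. Against MEF, 4 of the 18 tested (21 listed) rose and 9 fell by day 9, and 7 rose and 7 fell in ESC. Of all tested genes, 24.1% rose and 19.8% fell by day 9, and 25.5% rose and 20.6% fell in ESC. H2-Q6 went from 1.07 CPM in MEF to 14.1 at day 6 and 41.1 at day 9, and was at 6.84 in ESC, a log2 fold change of 5.30 at day 9 against MEF. H2-M5 was at 0.757 CPM in MEF, 2.48 at day 9 and 45.1 in ESC. H2-Bl went from 0.159 CPM in MEF to 2.71 at day 9 and 4.26 in ESC. Fcgrt, the neonatal Fc receptor, which pairs with B2m, fell from 54.1 CPM in MEF to 2.03 at day 9 (-4.77) and was at 21.9 in ESC. Hfe, an iron regulator that also pairs with B2m, went from 8.97 to 1.45 CPM at day 9 (-2.60). H2-T3 and H2-Q2 reached 1.73 and 0.939 CPM in ESC from 0.0152 and 0.101 in MEF, too few reads for a fold. These paralogues share sequence, so their split of reads is uncertain.

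Among the 8 natural killer receptor ligands tested against MEF, 2 rose and 3 fell by day 9, and 2 rose and 2 fell in ESC. Over all tested genes, 24.1% rose and 19.8% fell by day 9, and 25.5% rose and 20.6% fell in ESC. H60c was at 0.0152 CPM in MEF, 10.2 at day 9 and 0.186 in ESC. Raet1d fell from 6.48 to 0.406 CPM at day 9 (-4.05), and Clec2d from 21.3 to 5.90 at day 9 and 3.66 in ESC. H60b was at 0.218, 0.89 and 0.574 CPM in MEF, day 9 and ESC. Class II genes were low: 3 of the 7 tested rose and 2 fell by day 9 against MEF, with H2-Eb1 at 0.506 CPM in MEF and 7.12 at day 9 and H2-Ab1 at 4.14 and 0.309. In ESC 3 were higher and 1 lower than in MEF. The class II counts stand beside the same shares of all genes.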
